A study of Mus musculus with 34 samples.

Results

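The strains DBA/2J and 129X1/SvJ answered stimulation differently from A/J, Balb/c and C57BL/6J in a set of genes led by interleukin 4, and for most of the genes with the largest contrasts the strains were far apart before stimulation and close together after it. For each gene the response was the mean log2 intensity in stimulated cells (T1) minus that in unstimulated cells (T0), and the contrast was the mean response of DBA/2J and 129X1/SvJ minus the mean response of A/J, Balb/c and C57BL/6J. Of 11413 genes compared, 972 (8.52%) had a contrast with an adjusted p under 0.05 in limma's moderated test, adjusted by Benjamini-Hochberg over all genes compared. The contrast was positive in 452 of them (3.96%) and negative in 520 (4.56%). These genes were chosen by their contrasts, so the contrasts, and the strain differences at T0 and T1 that make them up, are given as descriptions. Measures that the choice did not use are tested, though with the same estimate of each gene's spread. The contrasts of chosen genes ran from -1.63 to 3.52 log2, with a median size of 0.52.

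CD4+ spleen cells of female mice aged 8 weeks had been taken with magnetic beads and profiled on Affymetrix arrays, 1 array per sample. DBA/2J and 129X1/SvJ had 3 arrays each at T0 and 3 each at T1, 12 in all. Of the other strains, A/J and C57BL/6J had 4 arrays at each time and Balb/c had 3, which made 22. T1 cells had been stimulated for 4 h with the phorbol ester PMA at 10 ng/ml and the calcium ionophore ionomycin at 1 uM, and T0 cells had not. The sources used here do not settle whether T0 cells were cultured for those hours, so culture and drugs cannot be told apart in a response. The labels name no transgene or engineered allele, and each strain is an inbred line. Any statement about the 2 strains against the 3 therefore rests on 5 genotypes. The p-values measure the spread between arrays, which the labels call biological replicates, and not the spread between strains.

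PMA activates protein kinase C and ionomycin raises cell calcium, and together they switch on the transcription factors AP-1, NF-kappaB and NFAT without the T cell receptor. Within hours, helper T cells make cytokines, transcribe immediate early transcription factors, raise receptors such as the interleukin 2 receptor and then make inhibitors, among them the SOCS proteins, that damp cytokine signals. Cytokine receptors signal through STAT proteins, whose targets include Cish, Socs1 and the guanylate binding proteins.

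The arrays were alike in overall level, with medians of 5.28 to 5.39 log2. The array labelled Balb/c T1 replicate 2 stood apart, with a mean correlation of 0.948 to the other arrays of its group, against 0.965 or more for every other array. Without it 1401 genes were called, 602 positive and 799 negative, and 952 of the 972 genes were among them. Group means under 5.327 log2, the median of all values, are not shown to lie above background, and differences that involve them understate or overstate the change. Cd4, Cd3e and Cd3d, which mark the labelled cells, were well above that limit on all arrays, at 7.5 log2 or more. Markers of other cells were measured too and are given beside the genes they move with. The intensities are of bulk RNA, in which fewer cells of a type and less RNA per cell cannot be told apart.

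The differences between strains at the 2 times show which level makes each contrast. The T0 difference was at least 2 times the T1 difference in size in 371 chosen genes, here called T0-driven (189 positive and 182 negative). The reverse held in 385 T1-driven genes (182 positive and 203 negative), and 216 lay between (81 positive and 135 negative). Without Balb/c T1 replicate 2, 436 genes were T0-driven and 661 T1-driven, so the near-even split rests on that array. Whether the T0 or the T1 difference is larger can be tested with a measure that the contrast did not use, the strain difference averaged over T0 and T1, whose design correlation with the contrast is 0. When this average has the sign opposite to the contrast, the T0 difference is the larger, and when it has the same sign, the T1 difference is. The average was called, at an adjusted p under 0.05 by limma, in 59.4% of chosen genes, against 28.5% of all genes compared. Both tests use the same estimate of each gene's spread, and the choice favours genes of small spread. The 2 shares are therefore not like for like. The T0 difference was the larger in 327 chosen genes and the T1 difference in 250, while 395 were not told apart.

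**Figure D1:**
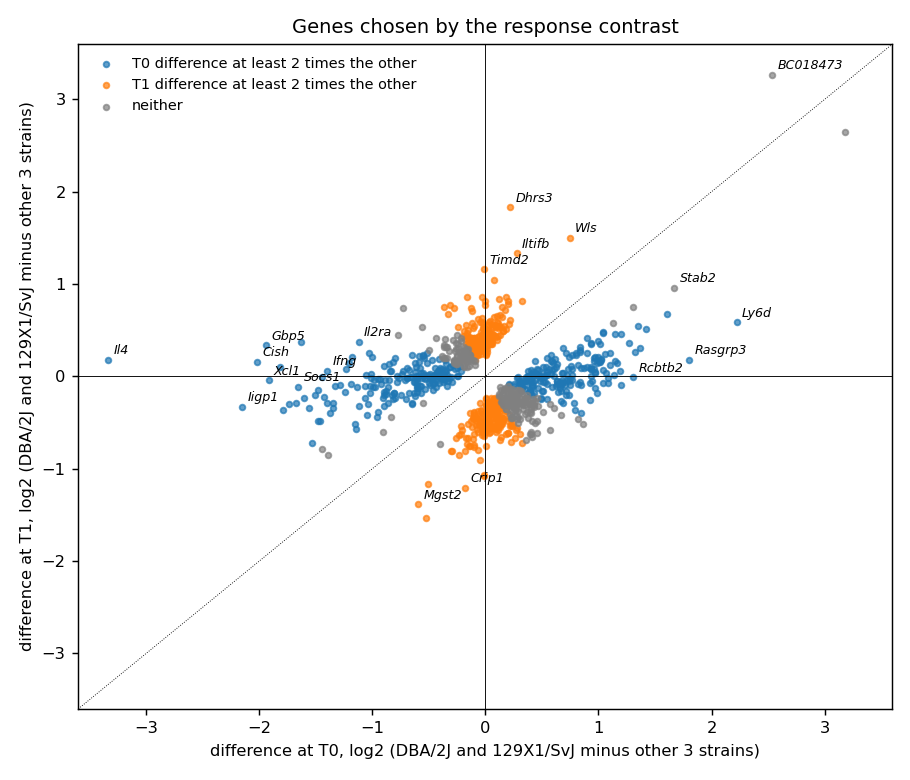
Each point is 1 of the 972 chosen genes. The x axis gives the strain difference at T0 and the y axis that at T1, both as the mean of DBA/2J and 129X1/SvJ minus the mean of the other 3 strains in log2, and the dotted line marks equal differences. Blue points are the 371 T0-driven genes, orange points the 385 T1-driven genes and grey points the 216 between. Il4 lies farthest to the left, at -3.34 and 0.18.

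Chosen genes with contrasts of at least 1 log2 in size numbered 80, of which 46 were positive and 34 negative. Among these, 35 positive and 19 negative genes were T0-driven, against 8 and 5 that were T1-driven. Of the 15 genes with the largest positive contrasts, 13 were T0-driven, and the average test placed the same number there. Of the 15 with the largest negative contrasts, 12 were T0-driven, and the average test placed 11 of the 15 there. The mean responses of both DBA/2J and 129X1/SvJ lay outside those of the other 3 strains in 912 of the 972 genes, against 34.9% of all genes compared. Since the contrast favours such genes, that share describes the choice. Arrays of the 2 sides did not overlap at T0 in 201 chosen genes, against 2.94% of all genes compared, and at T1 in 92, against 1.9%. Taken alone, the T0 difference was called in 488 chosen genes, against 13.3% of all genes (6.13% higher and 7.13% lower in DBA/2J and 129X1/SvJ), and the T1 difference in 576, against 24.5% (12.0% higher and 12.5% lower). Both differences are parts of the contrast, so these counts are descriptions. The share of genes chosen ran from 5.69% on chromosome 8 to 11.43% on chromosome 12.

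Over the positive genes, the median response was 0.56 log2 in DBA/2J and 0.66 in 129X1/SvJ, against 0.16 for A/J, 0.13 for Balb/c and 0.04 for C57BL/6J. Averaged over the 5 strains, stimulation raised 266 of these genes and lowered 140 at an adjusted p under 0.05. Over the negative genes, the median response was -1.18 in DBA/2J and -1.09 in 129X1/SvJ, against -0.53 for A/J, -0.58 for Balb/c and -0.62 for C57BL/6J. Stimulation lowered 434 of these and raised 45. The mean responses of the 2 sides had opposite signs in 80 chosen genes. In none of those 80 were the responses of all 5 strains called by limma.

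**Figure D2:**
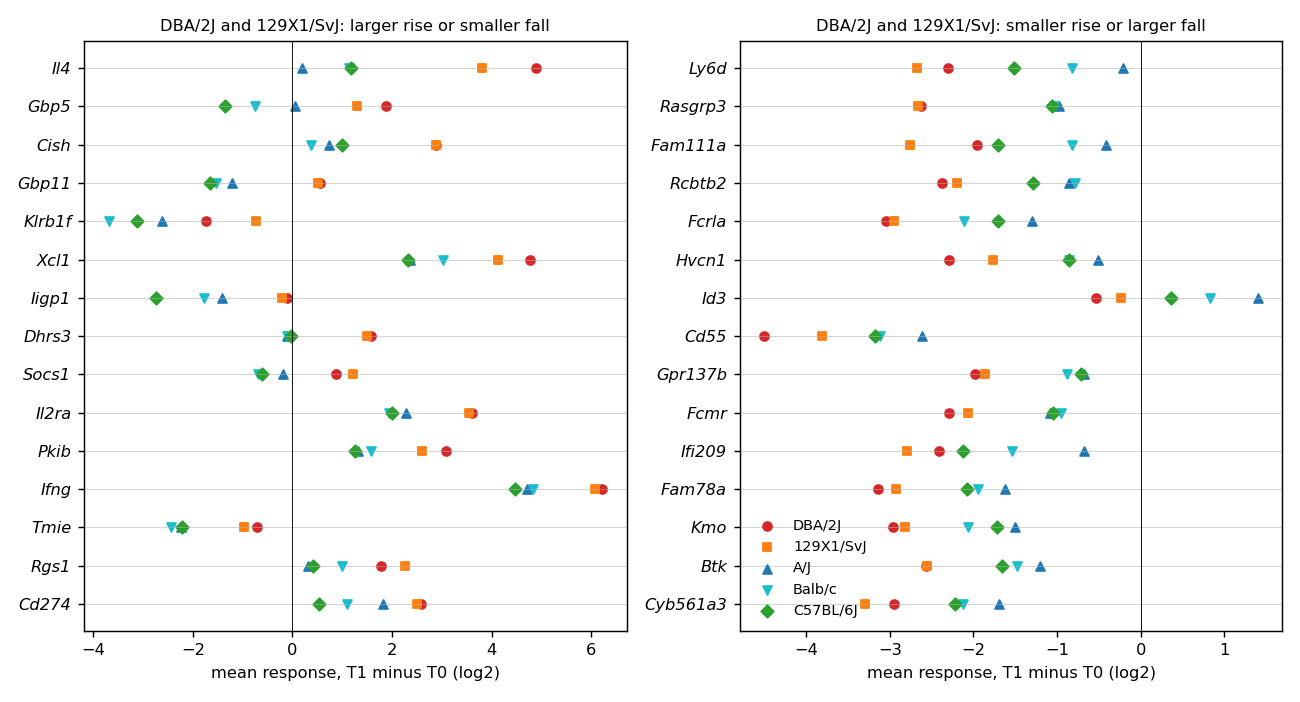
Mean response (T1 minus T0, log2) of each strain, 1 symbol per strain, for the 15 genes with the largest positive contrasts (left) and the 15 with the largest negative contrasts (right). Il4 has responses of 4.90 in DBA/2J and 3.80 in 129X1/SvJ, against 0.19 to 1.18 in the other 3 strains, and Ifi209 is a gene whose other 3 strains are themselves spread, from -2.13 to -0.68.

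Il4 (probe set 10385832, chromosome 11), the cytokine that directs helper T cells to the type 2 fate, had the largest contrast of all genes. At T0 it lay at 6.44, 6.90 and 7.31 log2 (lowest, median and highest of 6 arrays) in DBA/2J and 129X1/SvJ, against 9.31, 10.05 and 11.07 (11 arrays) in the other 3 strains. At T1 it lay at 10.44, 11.25 and 11.94 in DBA/2J and 129X1/SvJ, against 10.10, 11.01 and 11.91 in the others. The T0 values of the 2 sides did not overlap and the T1 values did. By strain, the T0 means were 6.89 ± 0.38 in DBA/2J and 6.85 ± 0.44 in 129X1/SvJ (SD, n = 3 each), against 10.61 ± 0.49 for A/J (n = 4), 10.29 ± 0.24 for Balb/c (n = 3) and 9.72 ± 0.31 for C57BL/6J (n = 4). Il4 was thus 10.1-fold lower at T0 in DBA/2J and 129X1/SvJ, and 1.13-fold higher at T1. The contrast was 3.52 (SE 0.25), and the average difference of -1.58 (SE 0.12, limma adjusted p = 4.41e-11) placed the larger difference at T0. Removing any 1 array left the contrast between 3.41 and 3.63.

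The promoters of Il4, Gbp5 and Ifng are shown because the 3 genes are among the largest positive contrasts and hold a motif that STAT proteins can bind. The 250 bases before each start site, credited to RefSeq on GRCm38.p6, are chr11:53618666-53618915 on the minus strand for Il4 (1 of 2 listed starts, the other without a match), chr3:142496684-142496933 on the plus strand for Gbp5 and chr10:118440796-118441045 on the plus strand for Ifng. Capitals mark matches to TTCNNNGAA or TTCNNNNGAA on either strand, which read the same since each motif is its own reverse complement. The bases are those of the reference build, and whether each of the 5 strains carries them was not checked.
Il4: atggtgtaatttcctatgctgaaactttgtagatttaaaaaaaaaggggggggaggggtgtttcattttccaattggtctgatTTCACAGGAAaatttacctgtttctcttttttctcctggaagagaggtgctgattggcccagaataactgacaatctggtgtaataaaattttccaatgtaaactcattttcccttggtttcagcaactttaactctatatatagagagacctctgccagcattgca
Gbp5: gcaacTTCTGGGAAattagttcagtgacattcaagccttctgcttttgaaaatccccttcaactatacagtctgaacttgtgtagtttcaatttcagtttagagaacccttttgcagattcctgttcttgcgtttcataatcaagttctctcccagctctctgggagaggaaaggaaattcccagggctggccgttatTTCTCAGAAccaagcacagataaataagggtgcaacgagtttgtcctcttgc
Ifng: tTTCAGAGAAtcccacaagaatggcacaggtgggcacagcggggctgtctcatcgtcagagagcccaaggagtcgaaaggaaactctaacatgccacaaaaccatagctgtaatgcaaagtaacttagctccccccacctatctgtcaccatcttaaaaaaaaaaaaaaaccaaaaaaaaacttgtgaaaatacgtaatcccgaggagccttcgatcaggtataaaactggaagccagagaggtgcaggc
Counted from the start site, the Il4 match begins at -167, the Gbp5 matches at -245 and -52 and the Ifng match at -249. Among all 32851 mouse promoters searched in the same window, 7.0% held TTCNNNGAA and 5.9% held TTCNNNNGAA. Of the 15 genes with the largest positive contrasts, 12 had a promoter that was searched and 5 of these held either motif. Cish and Socs1, named above as STAT targets, and Il2ra were searched and held neither motif in this window. Iigp1, also among these 15, was left out of the search. Of the 15 with the largest negative contrasts, 12 had a promoter that was searched and 2 held either motif. Counted over all listed starts of a gene, 14.2% of 27025 genes held either motif. With Iigp1 left out, the counts of named genes and that share are not fully like for like. The motifs were chosen after the genes were known, and a match is a description of letters, not of binding.

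Other cytokines had the same pattern with smaller contrasts. Ifng, the interferon that activates macrophages, lay at 5.06, 5.28 and 5.63 log2 at T0 in DBA/2J and 129X1/SvJ, against 6.10, 6.61 and 7.18 in the other 3 strains, without overlap. The T1 values were 11.20, 11.40 and 11.74, against 11.10, 11.33 and 11.96. The 2 strains started lower and the sides reached overlapping levels, for a contrast of 1.46 (SE 0.19) and an average difference of -0.67 (SE 0.09, limma adjusted p = 2.73e-06). The DBA/2J mean of Ifng was under the background limit at T0, so no fold is given. Il2, the growth factor of T cells, lay at 3.49 to 4.18 at T0, against 4.92 to 5.66, and at 10.15 to 10.86 at T1, against 10.38 to 11.53. All 5 strain means of Il2 at T0 were under the limit, and its contrast was 1.06 (SE 0.20). Il13, another type 2 cytokine, had a T0 difference of -1.01, a T1 difference of -0.01 and a contrast of 1.00 (SE 0.19).

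Of the 28 cytokine genes compared, 7 had a positive contrast past the threshold and 0 a negative one (25.0%, against 8.52% of all genes). The cytokine list had a median T0 difference of -0.14 and a median T1 difference of -0.03, against 0.00 and 0.01 over all genes. The T0-driven members were Il4, Ifng, Il13, Tnfsf8, the ligand of CD30, and Il2, whose class rests on T0 values under the background limit. Csf2, which drives granulocyte and macrophage growth, and Il17f, of the interleukin 17 family, were the 2 T1-driven members, and all their T0 means were under that limit. Without DBA/2J the calls of Csf2, Il17f and Il2 were lost, and that of Il17f also without A/J or without C57BL/6J. Il17f lay at 4.49 to 5.27 at T0, against 4.63 to 5.22, and at 9.33, 9.69 and 10.39 at T1, against 8.07, 8.64 and 10.04. Its sides overlapped at both times, and the average difference was 0.56 (SE 0.11, limma adjusted p = 0.000265), with the larger difference at T1. Not every cytokine took part: Tnf had responses of 2.82 in DBA/2J and 2.88 in 129X1/SvJ, against 2.89, 2.79 and 2.73 in A/J, Balb/c and C57BL/6J, and a contrast of 0.04 (SE 0.14, not called).

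**Figure D3:**
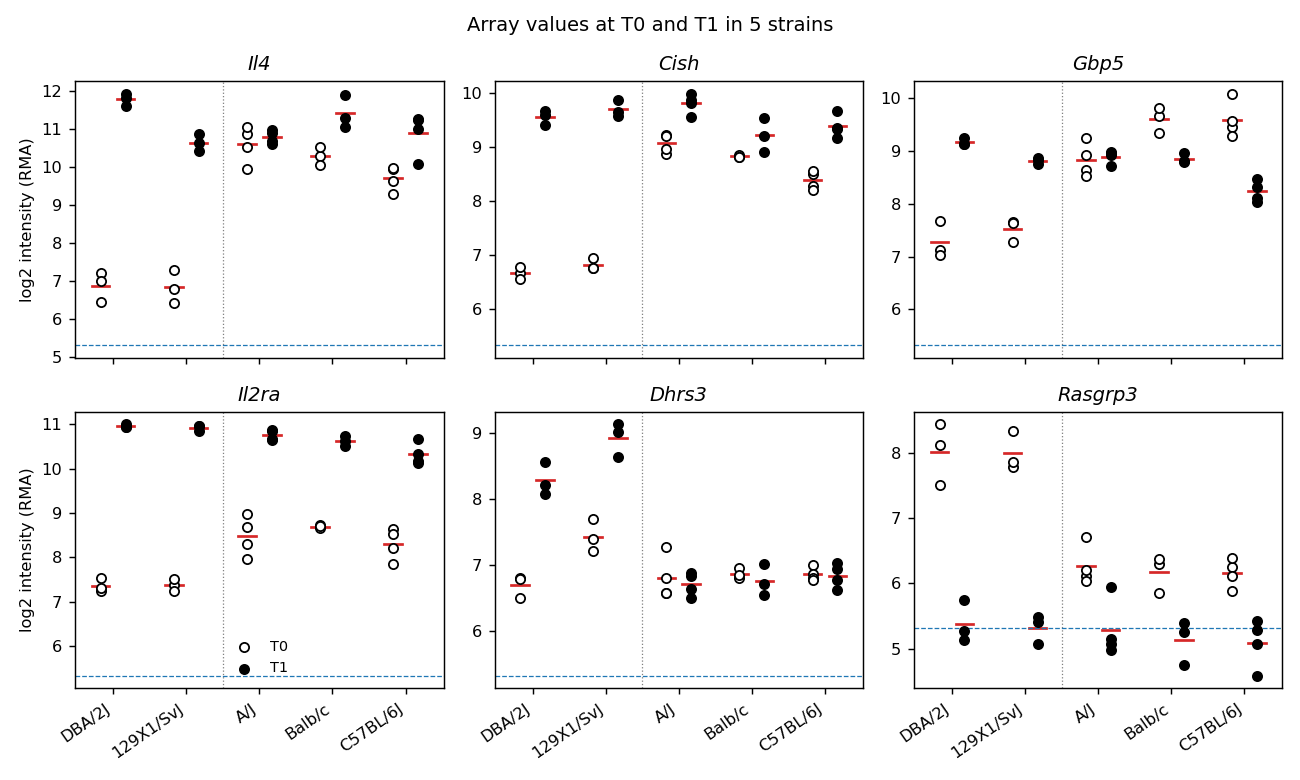
Log2 intensity on each array at T0 (open points) and T1 (filled points), for 6 genes in 5 strains. Red bars are group means (n = 3 or 4), the blue dashed line is the background limit of 5.327 and the dotted line separates DBA/2J and 129X1/SvJ from the other 3 strains. Il4, Cish, Gbp5 and Il2ra are lower at T0 in the 2 strains, Rasgrp3 is higher at T0 there, and Dhrs3 is higher at T1 there.

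The inhibitors of cytokine signalling were also low at T0 in DBA/2J and 129X1/SvJ. Cish, a SOCS family inhibitor induced by interleukin 2 and STAT5, lay at 6.56, 6.75 and 6.94 log2 at T0, against 8.20, 8.81 and 9.23 in the other 3 strains, and the sides did not overlap. The T1 values were 9.40, 9.62 and 9.87, against 8.91, 9.53 and 9.99. Both strains had nearly the same response, 2.89 in DBA/2J and 2.88 in 129X1/SvJ, against 0.74, 0.38 and 0.99 in A/J, Balb/c and C57BL/6J. The T0 level was 4.06-fold lower in the 2 strains, and the average difference of -0.93 (SE 0.06, limma adjusted p = 2.2e-12) placed the larger difference at T0.

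Socs1, which blocks the kinases of interferon and interleukin receptors, lay at 6.66, 6.92 and 7.39 at T0, against 8.02, 8.59 and 9.15, without overlap. At T1 it lay at 7.93, 8.04 and 8.09, against 7.73, 8.12 and 8.55. Its responses were 0.88 in DBA/2J and 1.21 in 129X1/SvJ, against -0.19, -0.69 and -0.62 in the other strains. The mean responses thus had opposite signs on the 2 sides, but not all 5 were called by limma. Averaged over the 5 strains, Socs1 did not pass the test of stimulation (limma adjusted p = 0.194). Rgs1, which shortens chemokine receptor signals, had a contrast of 1.44 (SE 0.22) with a T0 difference of -1.44 and a T1 difference of -0.01. Socs3 had a contrast of 1.22 (SE 0.15) in the probe set used and 0.44 in another probe set of the gene, so its size is uncertain. Of 26 feedback regulators compared, 9 were positive and 1 negative past the threshold (38.5%, against 8.52% of all genes), with median differences of -0.22 at T0 and -0.10 at T1. The negative member, Zfp36l1, an mRNA decay factor, had a contrast of -0.34 (SE 0.09).

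Receptors of the same pathways followed. Il2ra, the high-affinity chain of the interleukin 2 receptor, lay at 7.24, 7.34 and 7.54 log2 at T0, against 7.84, 8.65 and 8.97, without overlap. At T1 it lay at 10.85, 10.96 and 11, against 10.12, 10.65 and 10.88. Il2ra was thus lower before stimulation and slightly higher after it, with differences of -1.12 and 0.37 and a contrast of 1.49 (SE 0.16). Il4ra, the receptor chain for interleukin 4, lay at 9.31 to 10.50 at T0, against 10.97 to 11.92, without overlap, and had responses of 0.26 and 0.79 in DBA/2J and 129X1/SvJ, against -0.51, -1.52 and -0.56. Cd274, the inhibitory ligand PD-L1, had a contrast of 1.39 (SE 0.13), and its T0 difference of -1.18 stood against 0.21 at T1.

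Of 25 activation receptors compared, 9 were positive and 1 negative past the threshold (40.0%, against 8.52% of all genes), with median differences of -0.13 at T0 and 0.03 at T1. Tnfrsf9 (4-1BB), Slamf1 and Tnfrsf4 (OX40), receptors that support activated T cells, had T0 differences of -1.07, -0.78 and -0.95. Cd69, the early activation marker, lay at 8.83, 9.53 and 9.77 at T0, against 9.72, 10.20 and 10.63, and at 12.31 to 12.68 at T1, against 12.09 to 12.70. Its contrast of 0.74 (SE 0.17) came with an average difference of -0.31 (SE 0.08, limma adjusted p = 0.00639). The exception, Il18r1, a receptor chain for interleukin 18, lay at 7.94 to 8.79 at T0, against 7.32 to 8.37, and at 5.54 to 5.96 at T1, against 6.02 to 6.59, without overlap at T1. Its contrast was -1.0 (SE 0.11).

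Many genes of the list of immediate early transcription factors, which also holds some later activation factors, were lower at T0 in DBA/2J and 129X1/SvJ. Of 27 compared, 13 were positive and 1 negative past the threshold (51.9%, against 8.52% of all genes). The 13 include Irf4, Batf and Tbx21, which are not immediate early genes in the strict sense, and Tbx21 is also in the lineage list. The median T0 difference was -0.29, against a median T1 difference of -0.01. Fos, a subunit of AP-1, lay at 5.44, 5.87 and 6.23 log2 at T0, against 6.81, 7.27 and 7.67, without overlap. The T1 values were 9.66, 10.25 and 10.77, against 9.88, 10.84 and 11.12. The nuclear receptors Nr4a3 and Nr4a2, markers of recent antigen receptor signals, had T0 differences of -1.33 and -1.40 and T1 differences of -0.10 and -0.29. Neither overlapped between the sides at T0. Nfil3, Fosb, Nr4a1, Egr2, Fosl2 and Maff were T0-driven as well. Egr1, Egr3, Myc and Ier2 had contrasts of -0.09, -0.01, 0.19 and -0.08 and were not called. Jund, a partner of Fos, went the other way, with a contrast of -0.59 (SE 0.11) that was T1-driven. By the average test 14 of the 27 were lower and 2 higher, against 14.9% lower and 13.6% higher over all genes. Without DBA/2J the list had 7 positive calls, and 7 without 129X1/SvJ.

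The guanylate binding proteins (GBPs) and the related immunity GTPases (IRGs), which interferon gamma induces against intracellular microbes, had the lowest median of any list at T0. Of 16 listed, 9 could be compared, and 7 of these were positive past the threshold and 0 negative (77.8%, against 8.52% of all genes). Gbp2, Gbp6, Irgm2, Igtp, Tgtp1, Tgtp2 and Ifi47 had no probe set with 1 gene symbol and were not compared. The list's median difference was -1.48 at T0 and -0.15 at T1, and all 9 were lower by the average test. Gbp5 lay at 7.03, 7.45 and 7.68 log2 at T0, against 8.53, 9.34 and 10.08, without overlap. At T1 it lay at 8.75, 8.99 and 9.25, against 8.03, 8.78 and 8.97. Gbp5 had responses of 1.89 and 1.29 in DBA/2J and 129X1/SvJ, against 0.06 for A/J, -0.75 for Balb/c and -1.36 for C57BL/6J. The T0 level was 3.83-fold lower in the 2 strains, and the average difference was -0.80 (SE 0.08, limma adjusted p = 7.13e-09).

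Iigp1, an IRG that attacks the vacuoles of parasites, lay at 5.79, 6.74 and 6.85 at T0, against 7.45, 8.81 and 9.13, without overlap. At T1 it lay at 5.52, 6.48 and 6.76, against 5.84, 6.74 and 7.33. Iigp1 hardly changed with stimulation in the 2 strains (-0.10 and -0.20), against responses of -1.42, -1.77 and -2.73 in the others. Gbp4 and Gbp7 had T0 differences of -1.48 and -1.20, and Gbp11, which the list did not hold, had one of -1.63. Gbp8 and Gbp2b were not called by the contrast, with T0 differences of -1.64 and -1.66. GBP genes are near copies of each other in clusters, so signal may be split among them. The type I interferon list, by comparison, had 3 positive and 1 negative call among 29 genes, with a median of -0.20 at T0 and -0.09 at T1. Its positive calls numbered 0 without DBA/2J T1 replicate 3, without DBA/2J and without 129X1/SvJ.

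The remaining genes of the largest positive contrasts included 2 of lymphocytes that are less typical of helper T cells. Xcl1, a chemokine for cross-presenting dendritic cells, lay at 4.69 to 5.09 at T0, against 6.09 to 7.34, and at 8.90 to 9.77 at T1, against 8.73 to 9.78. Klrb1f, a C-type lectin receptor of the NK cell family, lay at 5.09, 6.01 and 6.77 at T0, against 6.70, 7.93 and 8.52, and at 4.41 to 5.19 at T1, against 4.24 to 5.20. Of the 8 CD8 T and NK cell markers compared, 0 were called in either direction, with a median T0 difference of -0.19. Summed over that list, the marker score (the mean log2 value of the list minus its mean over the 34 arrays) lay between -0.13 and 0.10 at T0, against -0.42 to 0.84. The part of such cells in these values was not tested. Gata3, the transcription factor of type 2 helper cells, lay at 7.94 to 8.87 at T0, against 9.21 to 9.59, without overlap, and at 8.56 to 9.34 at T1, against 8.99 to 9.66. Foxp3, which marks regulatory T cells, had a contrast of 0.24 (SE 0.20, not called).

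Genes higher at T1 in DBA/2J and 129X1/SvJ were fewer among the large contrasts. Dhrs3, an enzyme that turns retinal back to retinol, was the clearest. It lay at 6.51, 7.01 and 7.70 log2 at T0, against 6.58, 6.81 and 7.28, and at 8.08, 8.60 and 9.13 at T1, against 6.50, 6.77 and 7.04. The T0 values overlapped and the T1 values did not. The responses were 1.58 in DBA/2J and 1.49 in 129X1/SvJ, against -0.10, -0.11 and -0.02 in A/J, Balb/c and C57BL/6J, and the T1 level was 3.57-fold higher in the 2 strains. The average difference of 1.03 (SE 0.07, limma adjusted p = 1.04e-11) placed the larger difference at T1.

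Ccnd2, a cyclin of the first phase of the cell cycle, lay at 9.94 to 10.20 at T0, against 10.23 to 10.58, and at 12.15, 12.32 and 12.47 at T1, against 11.28, 11.58 and 11.88. The sides did not overlap at either time, and the direction turned from lower at T0 to higher at T1. Timd2, a receptor for ferritin in mouse, lay under the background limit at T0 on all arrays, and at 4.76, 5.10 and 5.81 at T1, against 3.56, 4.06 and 4.67. DBA/2J alone had a T1 mean above the limit for it, at 5.57 ± 0.33 (n = 3). Pkib, an inhibitor of protein kinase A, fell between the classes, with differences of -0.73 at T0 and 0.74 at T1 and a contrast of 1.47 (SE 0.23).

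Sterol and ribosome genes were higher in DBA/2J and 129X1/SvJ over most of their lists, with small contrasts. Of 15 genes of cholesterol synthesis and uptake, 12 were higher and 0 lower by the average test, against 13.6% higher over all genes, and the list's median difference was 0.05 at T0 and 0.46 at T1. The contrast called 3 of the 15, all positive, and 5 without A/J T0 replicate 4 or without 129X1/SvJ T1 replicate 2. Insig1, which restrains sterol synthesis, lay at 9.15 to 9.65 at T0, against 9.23 to 9.68, and at 10.60, 10.90 and 11.11 at T1, against 9.87, 10.38 and 10.63. Its contrast was 0.54 (SE 0.12). Of 26 ribosome biogenesis genes, 18 were higher and 0 lower by the average test, with median differences of 0.13 at T0 and 0.29 at T1, and 0 passed the contrast.

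Some T1-driven genes were lower at T1 in DBA/2J and 129X1/SvJ. Crip1, a small LIM protein of effector T cells, lay at 8.30, 8.36 and 8.71 log2 at T0, against 8.01, 8.65 and 9.48, and at 8.18, 8.37 and 8.55 at T1, against 8.70, 9.54 and 10.38. The sides overlapped at T0 and did not at T1. Crip1 had responses of 0.04 and -0.17 in DBA/2J and 129X1/SvJ, against 1.06, 0.92 and 0.91, and an average difference of -0.69 (SE 0.07, limma adjusted p = 3.67e-09). Mgst2, a glutathione transferase that can make leukotriene C4, lay at 6.19 to 6.83 at T0, against 6.83 to 7.48, where the sides met without overlap, and at 4.91 to 5.68 at T1, against 6.58 to 6.93. Cxcl3, a chemokine for neutrophils, lay at 4.72 to 5.43 at T0, against 4.89 to 5.46, and at 5.21, 5.92 and 6.29 at T1, against 5.47, 7.25 and 8.16. Its call was lost on leaving out DBA/2J, 129X1/SvJ or A/J.

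Of 23 memory and effector T cell genes, 10 were negative and 1 positive past the contrast's threshold (47.8%, against 8.52% of all genes), with a median difference of 0.23 at T0 and -0.05 at T1. The negative members were the integrins Itgb1 and Itgal, the chemokine receptors Cxcr3 and Ccr6, the calcium-binding S100a6, S100a10 and S100a11, and Anxa2, Lgals1 and Crip1. Ccr6, which guides cells to mucosal tissue, lay at 5.86 to 6.46 at T0, against 5.08 to 5.65, without overlap, and under the background limit at T1 in the group means. S1pr1, the receptor by which lymphocytes leave lymphoid organs, lay at 10.95 to 11.12 at T0, against 10.36 to 10.94, without overlap, and at 6.64, 7.13 and 7.68 at T1, against 6.97, 7.87 and 8.31. It had responses of -4.13 and -3.57 in the 2 strains, against -2.73, -2.76 and -2.99.

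Most T cell receptor signalling genes were lower in DBA/2J and 129X1/SvJ. Of 19 compared, 16 were lower and 2 higher by the average test, against 14.9% lower over all genes, with median differences of -0.22 at T0 and -0.40 at T1. The contrast called 2 of them as positive and 3 as negative (26.3%, against 8.52% of all genes), and of 11 CD4 T cell markers 2 as positive and 4 as negative (54.5%). The positive members were T0-driven: Trat1, which stabilises the receptor at the surface, had differences of -1.43 at T0 and -0.22 at T1, Cd247, the zeta chain, -0.75 and -0.20, and Lcp2, the adaptor SLP-76, -0.65 and -0.29. Among the negative members, Cd3g, a chain of the receptor complex, lay at 10.77 to 11.32 at T0, against 10.78 to 11.47, and at 8.61, 9.04 and 9.31 at T1, against 8.94, 9.79 and 10.35. Cd4 lay at 9.30, 9.44 and 9.78 at T0, against 9.21, 9.34 and 9.59, and at 7.91, 8.07 and 8.55 at T1, against 8.36, 8.86 and 9.15. Grap2, an adaptor downstream of the receptor, lay at 7.67 to 8.17 at T1, against 8.18 to 8.91, without overlap. The marker score of 11 CD4 T cell genes ran from -0.04 to 0.28 at T0, against 0.19 to 0.63, and from -0.73 to -0.34 at T1, against -0.29 to 0.11. Its T1 ranges did not overlap, so the 2 sides differed in these markers beside every result at T1, and the part of this in the results was not tested.

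The largest negative contrasts were led by genes known from B cells. Ly6d, a surface protein of early B cells, lay at 9.02, 9.80 and 10.18 log2 at T0, against 6.14, 7.04 and 9.21, and at 6.56, 7.30 and 7.81 at T1, against 5.83, 6.47 and 7.60. The sides overlapped because C57BL/6J was high at T0 as well, at 8.77 ± 0.41 (n = 4), against 6.51 ± 0.25 in A/J (n = 4) and 7.16 ± 0.20 in Balb/c (n = 3). Rasgrp3, a Ras activator of B cells, lay at 7.50, 7.98 and 8.43 at T0, against 5.86, 6.20 and 6.71, without overlap, and at 5.08 to 5.74 at T1, against 4.59 to 5.95. The T0 level of Rasgrp3 was 3.48-fold higher in DBA/2J and 129X1/SvJ, and the average difference of 0.99 (SE 0.11, limma adjusted p = 7.35e-08) placed the larger difference at T0. Several T1 means of Rasgrp3 were under the background limit, so its contrast of -1.62 (SE 0.22) is not exact.

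Fcrla, an Fc receptor-like protein of B cells, lay at 7.90 to 8.44 at T0, against 6.47 to 7.53, and Btk, the kinase of the B cell receptor pathway, at 6.95 to 8.07, against 5.98 to 6.81, neither with overlap. Fcmr, a receptor for immunoglobulin M, lay at 8.33 to 9.36 at T0, against 7.29 to 8.41, and Hvcn1, a proton channel, at 7.46 to 8.69, against 7.07 to 7.59. Rcbtb2, at 7.41, 7.90 and 8.26 at T0, against 6.33, 6.61 and 6.86, had T1 values of 5.12 to 6.12, against 5.27 to 5.96. Kmo, an enzyme of tryptophan breakdown, and Cyb561a3, a cytochrome of lysosomes, did not overlap at T0 either. Each of these 7 genes had T1 values that overlapped between the sides.

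B cell markers as a whole moved with these genes. Of 17 compared, 8 were negative and 0 positive past the contrast's threshold (47.1%, against 8.52% of all genes), and the median difference was 0.96 at T0 and 0.18 at T1. The B cell marker score ran from 0.78 to 1.44 at T0 in DBA/2J and 129X1/SvJ, against -0.23 to 0.64, without overlap. At T1 it ran from -0.52 to -0.11, against -0.89 to -0.38. Cd79a, which carries the signal of surface immunoglobulin, lay at 9.09, 9.43 and 10.09 at T0, against 8.11, 8.52 and 8.90, and Ms4a1 (CD20) at 8.24 to 9.20, against 7.01 to 8.32. Blk and Cd74 were higher in the 2 strains at both times (1.17 and 1.27 at T0, 0.84 and 1.00 at T1) and were not called by the contrast. Negative calls numbered 5 without replicate 3 (T0) or 4 (T1) of DBA/2J, and without replicate 4 (T0) or 2 (T1) of 129X1/SvJ. By the average test 15 of the 17 were higher and 0 lower, against 13.6% higher over all genes. The part of B cells in the negative contrasts was not tested.

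**Figure D4:**
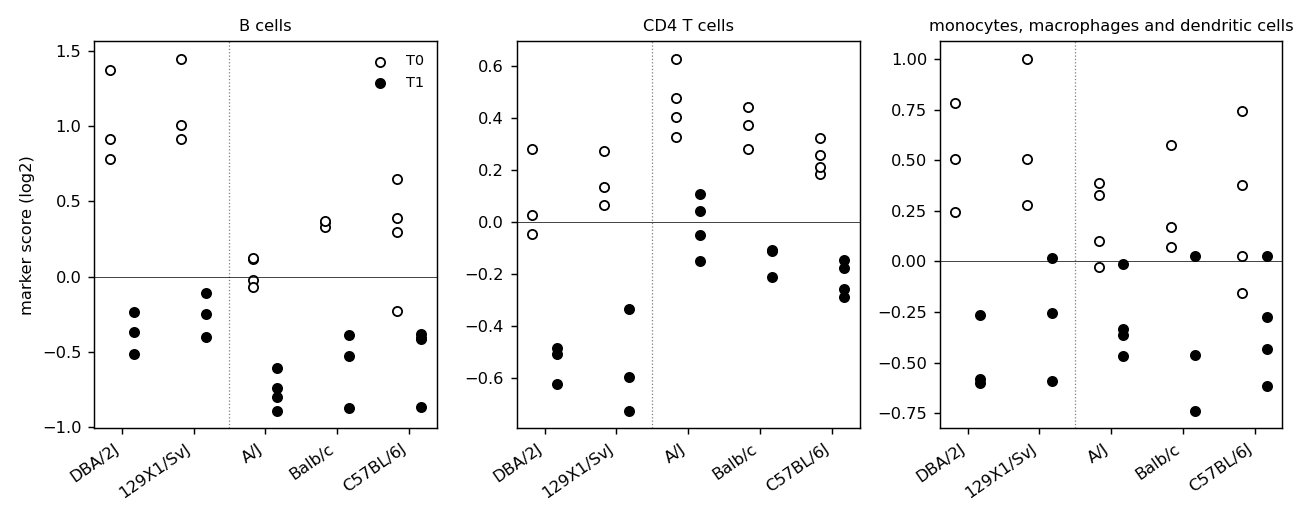
Marker score of each array (mean log2 value of the list's genes minus the mean over all 34 arrays) at T0 (open points) and T1 (filled points), by strain, for 3 cell type lists. The B cell scores of DBA/2J and 129X1/SvJ at T0 run from 0.78 to 1.44, above the -0.23 to 0.64 of the other 3 strains, and their CD4 T cell scores at T1 run from -0.73 to -0.34, below -0.29 to 0.11.

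Other marker lists had fewer calls. Of 19 genes of monocytes, macrophages and dendritic cells, 3 were negative and 0 positive past the threshold (15.8%, against 8.52% of all genes), with a median difference of 0.17 at T0 and -0.01 at T1, and the score ran from 0.24 to 1.00 at T0, against -0.16 to 0.74. Lyz2, a defining marker of monocytes and macrophages, lay at 8.49, 9.20 and 10.43 at T0, against 8.57, 9.37 and 10.11. At T1 Lyz2 lay lower in the 2 strains, at 6.41, 7.25 and 8.44, against 8.05, 8.42 and 9.13. Csf1r, the other defining marker, lay at 5.83, 6.45 and 7.22 at T1, against 5.63, 6.94 and 7.36. Leaving out 1 array moved the 3 negative calls between 1 and 5. It was 1 without replicate 3 (T0) or 2 (T1) of DBA/2J, and without replicate 4 (T0) or 2 (T1) of 129X1/SvJ. It was 5 without replicate 2 (T1) of Balb/c, replicate 3 (T0) or 2 (T1) of C57BL/6J, and replicate 2 (T0) or 4 (T1) of 129X1/SvJ. The 9 neutrophil markers had 0 calls, and a median of 0.21 at T0 and -0.07 at T1. The 9 erythroid markers had 0 calls of the contrast, with medians of -0.78 and -0.46. Their T0 score was 0.40 ± 0.33 in DBA/2J and -1.81 ± 0.27 in 129X1/SvJ (SD, n = 3 each), against -1.35 to 1.45 on the arrays of the other 3 strains, so the 2 strains differed from each other in it. The 3 platelet markers compared had 0 calls, and Pf4, which defines them, was under the background limit. The part of these cells in the results was not tested.

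The remaining lists are given by their counts, against 8.52% of all genes. Of 13 chemokines (23.1% called), Xcl1 and Ccl4 were positive and Cxcl3 negative, and Ccl4 lost its call on leaving out any 1 of 8 arrays. Of 20 genes of T cell quiescence, 1 was positive and 4 negative (25.0%). Of 17 regulatory T cell genes, 4 were positive and 0 negative (23.5%), and of 15 lineage transcription factors, 3 were positive and 1 negative (26.7%). Of 22 proliferation genes (9.09%), Ccnd2 was positive and Mcm6, a helicase subunit of DNA replication, negative. Of 14 heat shock proteins and chaperones, 0 were called.

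Not all large negative contrasts were of B cell genes. Id3, an inhibitor of E proteins in lymphocytes, lay at 6.64, 6.67 and 6.98 at T0, against 5.70, 5.87 and 6.02, without overlap, and at 5.81, 6.31 and 6.88 at T1, against 6.02, 6.99 and 7.49. Its responses were -0.53 in DBA/2J and -0.23 in 129X1/SvJ, against 1.40, 0.83 and 0.36. These means had opposite signs, but not all 5 were called by limma. Cd55, which protects cells from complement, had responses of -4.50 and -3.81, against -2.61, -3.12 and -3.18, and all 5 of its T1 means were under the background limit. Ifi209, an interferon-induced DNA sensor family member, depended on A/J, where it lay at 5.89 ± 0.07 at T0 (n = 4), against 8.91 ± 0.15 in Balb/c (n = 3) and 9.95 ± 0.34 in C57BL/6J (n = 4). Its call was lost without A/J and without 129X1/SvJ.

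**Figure D5:**
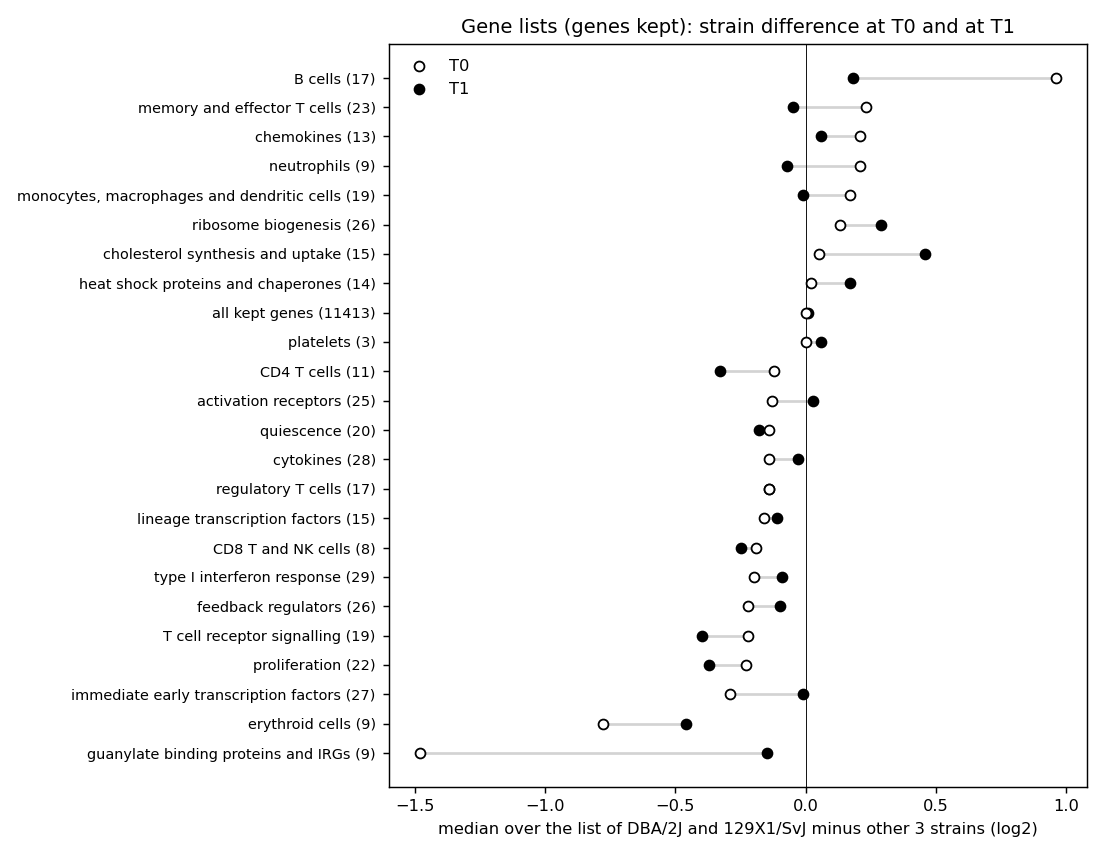
Median difference between DBA/2J and 129X1/SvJ and the other 3 strains over the compared genes of each list, at T0 (open) and T1 (filled), in log2, with the number of genes in brackets. The guanylate binding proteins and IRGs lie lowest at T0, at -1.48, and the B cell markers highest, at 0.96, and both lie closer to 0 at T1.

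The responses of DBA/2J and 129X1/SvJ were also set against each other. They differed by the limma test in 19 of the 972 (1.95%), against 0.359% of all genes compared (0.158% with the higher response in DBA/2J and 0.202% in 129X1/SvJ). Among the other 3 strains, the F test called 47 of the 972 (4.84%), against 1.31% of all genes. Both tests share the contrast's estimate of each gene's spread, and the choice favours genes of small spread. The shares of chosen genes are therefore not like for like with those of all genes. A gene that was not called is not shown to respond alike: Il4 differed by 1.10 (SE 0.39) between DBA/2J and 129X1/SvJ with a limma adjusted p of 0.438. Some of the 19 were carried by 1 strain. F3, tissue factor that starts blood clotting, had a response of 2.98 in DBA/2J and 0.91 in 129X1/SvJ, against 0.98, 0.85 and 1.33 in A/J, Balb/c and C57BL/6J (difference 2.07, SE 0.26, limma adjusted p = 2.2e-05). Pls3, an actin-bundling protein, had a response of -2.42 in DBA/2J, against 0.15 in 129X1/SvJ, and lay at 6.44 ± 0.40 at T0 in DBA/2J alone, with every other T0 mean at 4.41 or less. Stab2, a scavenger receptor, lay at 8.45 ± 0.14 at T0 and 7.19 ± 0.21 at T1 in DBA/2J (n = 3 each), against 5.06 ± 0.11 and 5.32 ± 0.04 in 129X1/SvJ and 4.95 to 5.38 in the other strains' means.

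Other genes were carried by 129X1/SvJ. BC018473 lay at 9.08 ± 0.08 at T0 and 10.79 ± 0.45 at T1 in 129X1/SvJ (n = 3 each), against 3.93 ± 0.03 and 3.87 ± 0.09 in DBA/2J (n = 3 each), and no array of the other 3 strains was above 4.75. Wls, which escorts Wnt proteins out of the cell, lay at 7.78 ± 0.09 at T0 and 8.82 ± 0.37 at T1 in 129X1/SvJ, against 5.83 ± 0.12 and 5.79 ± 0.22 in DBA/2J (n = 3 each). Its responses were 1.04 in 129X1/SvJ and -0.05 in DBA/2J (limma adjusted p = 0.011). Gbp9 went the other way, with a response of 1.73 in DBA/2J and 0.25 in 129X1/SvJ (limma adjusted p = 0.012), unlike Cish and Il2ra, whose 2 responses differed by 0.01 (SE 0.20) and 0.06 (SE 0.26).

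At the threshold itself, the last genes chosen were Hspbp1, Yars2 and Cdca7l, with contrasts of 0.34 (SE 0.11), 0.46 (SE 0.15) and -0.37 (SE 0.12). The first genes left out were Il21, Gars and Wars2, with contrasts of 0.97 (SE 0.31), 0.28 (SE 0.09) and 0.41 (SE 0.13). Il21, a cytokine of helper cells for B cells, had a T0 difference of -1.13 and a T1 difference of -0.16, and its arrays were more scattered than those of Il2, from 3.19 to 4.72 at T0, against 4.00 to 6.65.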

How the data were processed

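CD4+ spleen cells of 5 strains were measured on 34 Affymetrix arrays. The deposited values are log2 intensities made by the authors with RMA (background correction, quantile normalization and probe summary) per the submitters' processing notes, with no version given in the sources used here. RMA equalizes the distributions of probe intensities before the probe summary, so a change shared by most genes would be hidden or reduced. The summarized values used here were close to equal but not fully so, with array medians of 5.28 to 5.39. Of 35556 probe sets, 21789 had 1 gene symbol, 1621 had several and 12146 had none. The probe set with the highest mean stood for each of 19938 genes, and 11413 were kept whose highest group mean reached the median of all values, 5.327. One mean per strain and time was fitted over all 34 arrays with limma 3.58.1 in R 4.3.3, with Benjamini-Hochberg adjustment over kept genes and a threshold of 0.05. The precision is limited by 3 or 4 arrays per group. Sequence differences between strains under the probes were not checked, and their part in the T0, T1 and average differences was not tested. Replicate numbers were not treated as pairs, because the labels do not say that a number marks the same animal at T0 and T1. The data hint at pairing: of 17 pairs of the same strain and number, 14 had deviations correlated above 0.1. If the arrays are paired, the fit understates the SE of the average over T0 and T1. The p-values of the average test would then be too small. The fit was tested on simulated data.

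Genes named are the 15 largest contrasts each way among called genes with both responses outside the other 3 strains (unnamed transcripts passed over). Also named, without that condition, are up to 4 called members of each list and any that went the other way, the 10 largest T1-driven differences, the 5 largest contrasts with differing DBA/2J and 129X1/SvJ responses, Il2, Il4, Ifng, Tnf, Cd69, Cd4, Foxp3 and the 3 genes on each side of the threshold. Genes named outside this rule, as list members or markers, were chosen after their values were seen. The members and lists were chosen with earlier results of these data known. The alternatives were other filters, quantile normalization, a spread trend, a replicate block, other probe set rules, and leaving out arrays, numbers or strains.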

Additional observations from a re-analysis of the deposited data

Results flagged for a closer look

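Dixon's test at the 95% level marked 15 of 412 groups of 4 arrays among the 103 genes examined, where chance marks about 1 in 20. In A/J these were Klrb1f at T1, replicate 4 (5.17 log2, with the others at 4.59 to 4.66), Fcrla at T0, replicate 1 (7.0, others 6.47 to 6.52), Ccl4 at T0, replicate 2 (6.72, others 6.87 to 6.90) and Nr4a2 at T1, replicate 2 (10.83, others 10.63 to 10.65). Yars2 in A/J was marked at T0, replicate 4 (6.03, others 6.68 to 6.70) and at T1, replicate 1 (7.53, others 7.16 to 7.19). In C57BL/6J, replicate 1 was marked for Ifi209 (10.45), Gpr83 (6.38) and Tnf (7.21) at T0, and for Cxcl3 (7.25), Grap2 (8.37) and Il17f (8.67) at T1. Replicate 4 of C57BL/6J was marked for Fcrla at T0 (6.74) and for Rcbtb2 (5.27) and Tbx21 (8.86) at T1.

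The response of DBA/2J minus that of 129X1/SvJ passed limma's test for 6 of the genes examined: Wls at -1.09, Pls3 at -2.56, F3 at 2.07, BC018473 at -1.77, Stab2 at -1.52 and Gbp9 at 1.48 log2. Responses differed among A/J, Balb/c and C57BL/6J by the F test, with a range between the strains of 1.42 for Gbp5, 1.29 for Cd274, 1.31 for Ly6d, 1.04 for Id3, 1.01 for Il4ra, 0.61 for Lcp2, 0.80 for Ahr and 1.10 for Gbp9.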

How the results depend on the processing

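The 972 chosen genes numbered 778 with no filter on low values (754 shared), 1032 with a stricter filter (912 shared), 1238 after quantile normalization (906 shared), 1018 with a spread trend (964 shared) and 972 with the mean of probe sets (957 shared). With strain and number as a replicate block, 1317 were called (933 shared) and 78 genes differed between DBA/2J and 129X1/SvJ, against 41 without the block. In that check 14 of 17 pairs correlated above 0.1 and 13 matched their own number best, a hint from the data and not the design. The block cannot give the T0, T1 or average differences.

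Leaving out any 1 array gave 801 to 1401 chosen genes, 351 to 602 positive and 401 to 799 negative, 320 to 436 T0-driven and 287 to 661 T1-driven. T0 differences numbered 1247 to 1754, T1 differences 2109 to 3355, average differences 2816 to 3681, differences between DBA/2J and 129X1/SvJ 27 to 72, and differences among A/J, Balb/c and C57BL/6J 90 to 197. Balb/c T1 replicate 2 gave the highest of these counts, and without it 436 genes were T0-driven and 661 T1-driven.

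With replicate numbers 1 and 2 only, where DBA/2J has 1 array per time that is assumed to vary like the other groups, 168 genes were chosen (111 positive, 57 negative; 116 T0-driven, 19 T1-driven). T0, T1 and average differences then numbered 756, 454 and 1107, with 4 between DBA/2J and 129X1/SvJ and 9 among the other 3 strains. With numbers 3 to 5, where Balb/c and 129X1/SvJ have 1 array per time, 459 were chosen (129 positive, 330 negative; 161 T0-driven, 197 T1-driven), with 788 T0 differences, 3 between the 2 strains and 18 among the 3.

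Without DBA/2J, 366 genes were called (198 positive, 168 negative; 202 T0-driven, 81 T1-driven), with 1696 T1 differences. Il2, Csf2, Il17f, Cxcl3, Cd69, Cd4 and S1pr1 lost their calls there, while Il4, Ifng, Cish and Il2ra kept theirs. Without 129X1/SvJ, 533 were called (196 positive, 337 negative; 210 T0-driven, 203 T1-driven), with 996 T0, 1826 T1 and 2078 average differences. Without A/J, 643 were called, 323 of them negative and 194 T1-driven. Without DBA/2J the contrast all but vanished for Itgae (-0.04), Stab2 (0.052) and Gbp9 (-0.016). Its sign changed for Pls3 (0.40) and F3 (-0.14), and without 129X1/SvJ for BC018473 (-0.15). Without Balb/c, by contrast, 1177 were called (839 shared), and without C57BL/6J 800 (687 shared). The cause of these changes was not tested.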

Other observations

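Genes outside the lists, chosen after their values were seen, had the same patterns. Stat5a, which carries interleukin 2 signals, had a T0 difference of -1.03 log2, a T1 difference of 0.26 and a contrast of 1.29 (SE 0.11). Bcl2, which protects lymphocytes from death, had -1.14 at T0 and -0.12 at T1, and Zbtb16, the factor PLZF of innate-like T cells, had -0.99 and -0.04. Pdcd1lg2, the inhibitory ligand PD-L2, differed at T1 instead, with -0.12 at T0 and 0.71 at T1.

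Among negative contrasts, Fcgr2b, the inhibitory Fc receptor of B cells, had 1.06 at T0 and 0.04 at T1, and Icosl, the ligand of ICOS, had 0.95 and -0.05. Unc93b1, which carries Toll-like receptors to endosomes, had 1.11 and 0.12. Abca1, a cholesterol exporter, had 0.97 and -0.13. B cell markers were higher at T0 in the same arrays, and their part in these values was not tested.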
